A study of Rattus norvegicus with 6 samples.

Results

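Ccl2 and Ccl7 encode the chemokines MCP-1 and MCP-3, secreted proteins that draw monocytes out of the blood and into tissue. They were followed here in cultured cardiac fibroblasts, which build and remodel the matrix of the heart. The pair is 2 of the 27108 genes in the deposited count table. They are the rows ENSRNOG00000007159 (Ccl2) and ENSRNOG00000000239 (Ccl7). Both were selected on their measured difference between the study's groups, TTR against UT, so that difference is a description below. Where a threshold is mentioned for either gene, it says only how a call depends on the processing and is no evidence for the difference.

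The 6 libraries came from ventricular fibroblasts of neonatal rats, sampled after 48 h of culture on coated glass. In the UT group (3 libraries) the coat was fibronectin, a cell-adhesion protein. In the TTR group (3 libraries) the coat held fibronectin and, in addition, fibrils of transthyretin, a plasma carrier protein whose fibrils deposit in the heart in transthyretin amyloidosis. No genotype, strain or drug is named for either group, and the labels do not say whether libraries came from separate cell isolations, so the spread between libraries may be technical. By its title, the series asks how transthyretin alters the structure, function and inflammatory gene expression of these cells.

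Both chemokines signal through CCR2, the receptor that marks classical monocytes, and CCL7 also binds other CC receptors. After secretion they bind the sulphated sugar chains of the matrix, which holds a gradient near the producing cell. Fibroblasts are a known source of both, and transcription of the genes is driven by NF-kappaB and AP-1 when cells sense cytokines or danger signals. The rat genes are neighbours on chromosome 10. In the RefSeq order (GRCr8) 0 genes lie between them, and Ccl11 and Ccl12, chemokines of the same family, come next. In the deposited table the rows also follow each other, with 0 rows between them. The table carries no symbols, and 0 of its 27108 IDs were matched to a symbol by the reference used here, so the names of both rows are those supplied with the IDs.

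The sequence just before the start of Ccl7 is shown, from RefSeq (GRCr8, chr10:67513845-67514094, plus strand, the 250 bases before the annotated start). The promoter set used here has no sequence for Ccl2, so its own window was not searched. Capitals mark matches in the Ccl7 window, on either strand, to the motifs searched.
Ccl7: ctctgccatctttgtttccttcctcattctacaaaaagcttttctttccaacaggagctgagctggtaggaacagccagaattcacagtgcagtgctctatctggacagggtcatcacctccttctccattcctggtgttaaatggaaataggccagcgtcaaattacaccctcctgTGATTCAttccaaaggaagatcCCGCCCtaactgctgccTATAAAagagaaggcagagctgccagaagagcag

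The window held 1 match to the TATA box TATAAA, 34 to 29 bases before the start. A single match to the AP-1 motif TGANTCA (N is any base) lay 73 to 67 bases before it. The GC box GGGCGG, a site of the Sp1 family, matched once on the opposite strand, 51 to 46 bases before the start. Of 33469 RefSeq promoter windows of the same 250 bases, 12.9% held TATAAA, 6.34% held TGANTCA and 30.5% held GGGCGG on either strand. None of the 3 kappaB forms searched was matched, which says only that these letters are not in this window. The forms were GGGNNNTCC (in 14.7% of windows), GGGNATTCC (0.651%), each match of which is also a match to GGGNNNTCC, and a longer kappaB form (1.3%). The same holds for CCAAT (34% of windows), the GAS element TTCNNNGAA (7.67%) and the C/EBP form TTGCNNAA (9.22%). A match describes the letters and is not evidence of a bound factor.

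Total counts ran from 6574199 to 11774729 per library, the largest being TTR replicate 1. Over genes averaging at least 20 counts, the closest pairs of libraries ran across the groups and not within them. The smallest chi-square per degree of freedom between 2 libraries was 5.51 for UT replicate 3 and TTR replicate 1. It was 5.69 for UT replicate 2 and TTR replicate 2, and 7.41 for UT replicate 1 and TTR replicate 3, against 8.78 or more for each pair inside a group. Other pairs across the groups stood at 9.97 to 22.7. The labels name nothing that the closest pairs share, so the closest pairs were not used as blocks, and their part in the results was not tested. Levels are given as CPM, counts per 1000000 of library size after TMM adjustment, which corrects for depth. As the length of the counted transcripts is not given in the sources used here, the levels of Ccl2 and Ccl7 are each compared between libraries and not with one another. In bulk RNA, a change in the number of cells making a transcript and a change in the RNA made per cell cannot be told apart. The label of cardiac fibroblast could not be checked against marker genes, because no marker symbol could be matched to a row. For the same reason the levels of the receptors, of other CC chemokines, of NF-kappaB and AP-1 genes and of markers of monocytes or macrophages were not analysed here.

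Ccl2, the more deeply counted of the pair, was 5.37-fold higher on the fibrils. On fibronectin alone its counts were 1099, 484 and 1338 in UT replicates 1, 2 and 3, or 150 CPM, 70.2 CPM and 198 CPM. On the fibrils they were 10197, 5239 and 4329 in TTR replicates 1, 2 and 3, or 879 CPM, 718 CPM and 649 CPM. All TTR libraries lay above all UT libraries, with UT replicate 2 the lowest of the 6 and TTR replicate 1 the highest. Mean levels were 139 ± 64.5 CPM for UT and 748 ± 118 CPM for TTR (SD, n = 3 each). The fitted log2 difference, TTR minus UT, was 2.43 (SE 0.32). Over the 9 pairings of a TTR library with a UT library the fold ran from 3.28 to 12.5. The low end set TTR replicate 3 against UT replicate 3, and the high end set TTR replicate 1 against UT replicate 2. In shares of the library, Ccl2 took 0.00701% to 0.0194% of all counts on UT and 0.0658% to 0.0866% on TTR.

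Ccl7 was 6.16-fold higher on the fibrils by the fit. Its counts were 100, 54 and 66 in UT replicates 1, 2 and 3, or 13.6 CPM, 7.84 CPM and 9.77 CPM. In TTR replicates 1, 2 and 3 they were 765, 466 and 422, or 65.9 CPM, 63.9 CPM and 63.3 CPM. The groups did not overlap, and the TTR libraries sat almost at one level. Mean levels were 10.4 ± 2.94 CPM for UT and 64.3 ± 1.39 CPM for TTR (SD, n = 3 each). Its log2 difference was 2.62 (SE 0.19). Over the 9 pairings of libraries the fold ran from 4.64 to 8.41, a narrower range than for Ccl2.

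**Figure D1:**
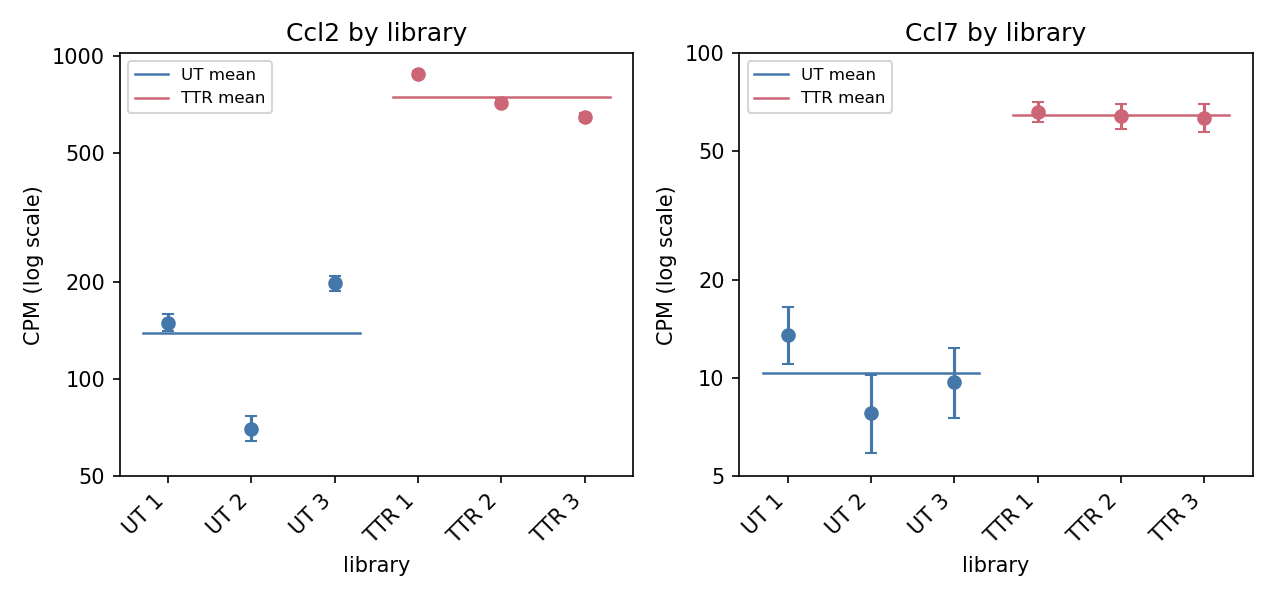
CPM of Ccl2 and Ccl7 (y axes, log scale, each with its own range) in each library (x axis). Points are libraries, bars are exact Poisson 95% intervals that cover counting error only, and lines are group means. All TTR libraries lie above all UT libraries for both genes, and Ccl7 stands at 63.3 to 65.9 CPM in the TTR group.

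The description can be set against all 12049 genes that passed the filter on low counts, which both genes did. Groups did not overlap, with TTR higher, for both members and for 3.75% of all tested genes. A fold of at least 4 was found for both members and for 0.149% of tested genes (18 genes). By log2 difference Ccl7 stood at place 13 and Ccl2 at place 15, counted from the highest. The rate of calls at an adjusted p of 0.05 depended on the tool and filter. The edgeR quasi-likelihood test called 0.0083% of tested genes higher on TTR (1 of 12049, which was Ccl7) and 0% lower. At an unadjusted p under 0.05 it held 285 of the 12049 genes, in both directions. This is a smaller share than the 0.05 expected if no gene differed. DESeq2 called 0.251% higher (35 of 13932) and 0.0144% lower (2 genes). Without the low count filter edgeR called 0.183% higher (34 of 18627) and 0.0107% lower (2 genes). Both members were among the genes these last fits called higher. As this contrast chose the members, nothing is read from these counts.

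Among genes with as high a mean level over the groups, differences of this size were rare. At or above the mean level of Ccl2 over the groups (444 CPM) there were 319 other genes, with log2 differences from -0.74 to 0.46, so 0 of them reached 2-fold in either direction. At or above the mean level of Ccl7 (37.4 CPM) there were 5141 other genes besides Ccl2, with log2 differences of at most 1.05. Of these, 1 was at least 2-fold higher on TTR and 1 at least 2-fold lower. The genes with larger log2 differences than both chemokines therefore all had a lower mean level over the groups than Ccl7. These mean levels are raised by the TTR group, against which the members were selected as higher. On UT alone the means were 139 CPM for Ccl2 and 10.4 CPM for Ccl7, and genes were not compared at those depths. This set of genes was chosen after the values were seen and is a description.

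**Figure D2:**
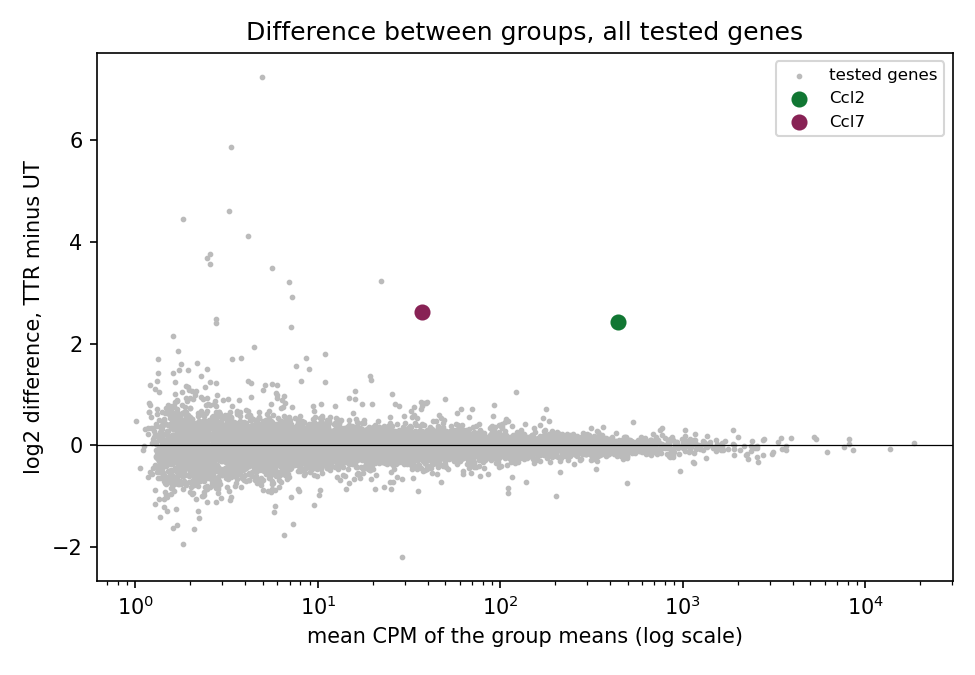
Log2 difference, TTR minus UT (y axis), against the mean of the group mean CPM values (x axis, log scale) for 12049 tested genes, shown as grey points. Ccl2 (2.43) and Ccl7 (2.62) are marked, and other genes with differences as large lie further left, at lower levels.

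The genes differed in how far replicates spread. On UT, Ccl2 had a coefficient of variation (SD over mean) of 46.3%, where counting error alone would give 3.52%. Its highest UT library was 2.82 times its lowest. On TTR the variation of Ccl2 was 15.7%, with 1.32% from counting, and the highest library was 1.35 times the lowest. For Ccl7 on UT it was 28.3%, with 12.1% from counting. On TTR the variation of Ccl7 was 2.17%, below the 4.41% that counting error alone would give, so the TTR libraries were closer together for Ccl7 than their counts can resolve. With 3 libraries per group such a spread is itself poorly measured, and the difference in spread between the groups was not tested.

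Within groups, the SD of log2 CPM was 0.57 for Ccl2, larger than in 93.8% of tested genes, and 0.28 for Ccl7, larger than in 67.8%. The median over all tested genes was 0.21. Among the 319 other genes at or above the mean level of Ccl2 over the groups the median was 0.16. Replicate variation in Ccl2 was thus wide for its mean level over the groups, and most of it came from the UT libraries, where its level was lower.

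**Figure D3:**
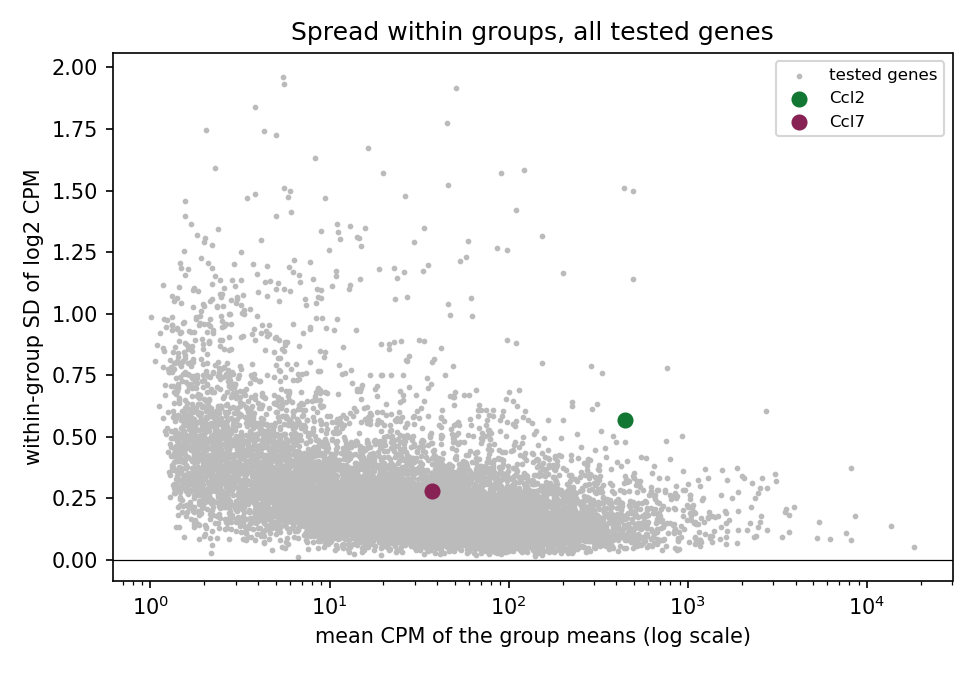
Within-group SD of log2 CPM (y axis) against the mean of the group mean CPM values (x axis, log scale) for 12049 tested genes in grey. Ccl2 is marked at 0.57, above most genes at its level, and Ccl7 at 0.28.

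The deviations of libraries from their group means were not the same for both chemokines. UT replicate 2 was the lowest UT library for both, at -0.86 from the group mean of log2 CPM for Ccl2 and -0.36 for Ccl7. The highest UT library was replicate 3 for Ccl2 (0.63 above the group mean) and replicate 1 for Ccl7 (0.42 above). In the TTR group replicate 1 was highest and replicate 3 lowest for both genes, but the order of Ccl7 is not resolved. Its variation there (2.17%) was below its counting error (4.41%). Deviations in TTR ran from -0.19 to 0.24 for Ccl2 and from -0.02 to 0.03 for Ccl7.

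The number of Ccl7 counts per 100 Ccl2 counts does not depend on how libraries are scaled and shows whether the pair kept its proportion. It was 9.10, 11.2 and 4.93 in UT replicates 1, 2 and 3. On TTR it was 7.50, 8.89 and 9.75 in replicates 1, 2 and 3. The TTR values lay inside the range of the UT values. Group means were 8.40 ± 3.17 on UT and 8.72 ± 1.13 on TTR (SD, n = 3 each). On the log2 scale the groups differed by 0.13, with an SD of 0.45 within groups. The difference in proportion was therefore smaller than the spread between replicates. UT replicate 3 stood lowest, with an exact binomial 95% interval of 3.79 to 6.32 that does not reach the interval of any other library, the nearest being 6.96 to 8.08 in TTR replicate 1. These intervals cover counting error only. Without UT replicate 3 the log2 difference was -0.22, so the sign of this small difference rests on that library.

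**Figure D4:**
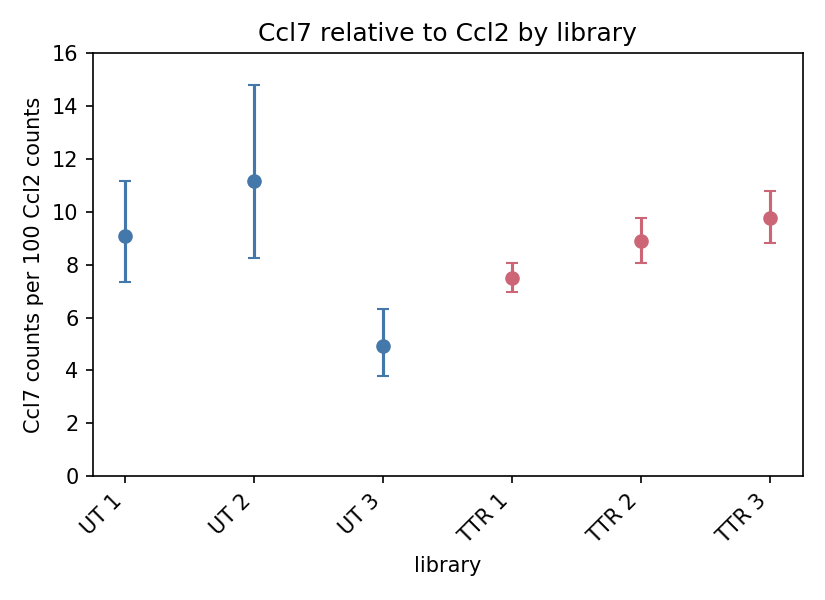
Ccl7 counts per 100 Ccl2 counts (y axis, from 0) in each library (x axis), with exact binomial 95% intervals for counting error. The UT libraries run from 4.93 to 11.2 and enclose the TTR libraries, which run from 7.50 to 9.75.

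The patterns of the pair across the 6 libraries were compared with those of all other tested genes by Pearson's r of log2 CPM. This r is a description over libraries in 2 groups that share their depth and scaling, and any gene that separates the groups scores high. It was 0.96 between Ccl2 and Ccl7, and 16 of 12048 other genes, or 0.133%, reached that value with Ccl2, and as many did with Ccl7, the partner included each time. With each group's mean removed, r between the members was 0.61. At that stage 10.6% of genes reached this value with Ccl2 and 12.1% with Ccl7. Deviations of Ccl7 in TTR were small (-0.02 to 0.03), so the r of 0.61 rests mostly on the UT libraries. The gene most like Ccl2 was ENSRNOG00000000314 (r = 0.99), with means of 216 CPM for UT and 233 CPM for TTR. Its log2 difference was 0.11 (SE 0.10). The gene most like Ccl7 was ENSRNOG00000029205 (r = 0.99), with means of 31.6 CPM for UT and 36.1 CPM for TTR and a log2 difference of 0.19 (SE 0.11). Neither of these genes passed the threshold of the edgeR test. Their likeness is in the relative pattern over the 6 libraries and not in the size of the change, which was far smaller than for the chemokines. The order by value inside the groups differed, but by small steps. Among UT libraries ENSRNOG00000000314 was highest in replicate 1 (219.4 CPM, against 218.7 CPM in replicate 3), where Ccl2 was highest in replicate 3. Among TTR libraries ENSRNOG00000029205 was lowest in replicate 2 (35.8 CPM, against 36.1 CPM in replicate 1), where Ccl7 was lowest in replicate 3. The TTR order of Ccl7 is not resolved by its counts, and these steps were not tested, so nothing is read from the ranks. The files do not pair either ID with a symbol.

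The size of both differences was recomputed under other scalings, tools, filters and sets of libraries. For Ccl7 the log2 difference lay between 2.45 and 2.87 in all 15 settings, or 5.47-fold to 7.32-fold. For Ccl2 it lay between 2.10 and 2.77, or 4.30-fold to 6.80-fold. Both ends for Ccl2 came from leaving out a UT library, the lowest without UT replicate 2 and the highest without UT replicate 3. For Ccl7 the ends came without UT replicate 2 and without UT replicate 1. The control libraries thus set more of the uncertainty in both folds than the TTR libraries did, over these settings. Scaling mattered little, since RLE factors, upper quartile factors and library totals alone gave 2.42 to 2.43 for Ccl2 and 2.62 to 2.63 for Ccl7.

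**Figure D5:**
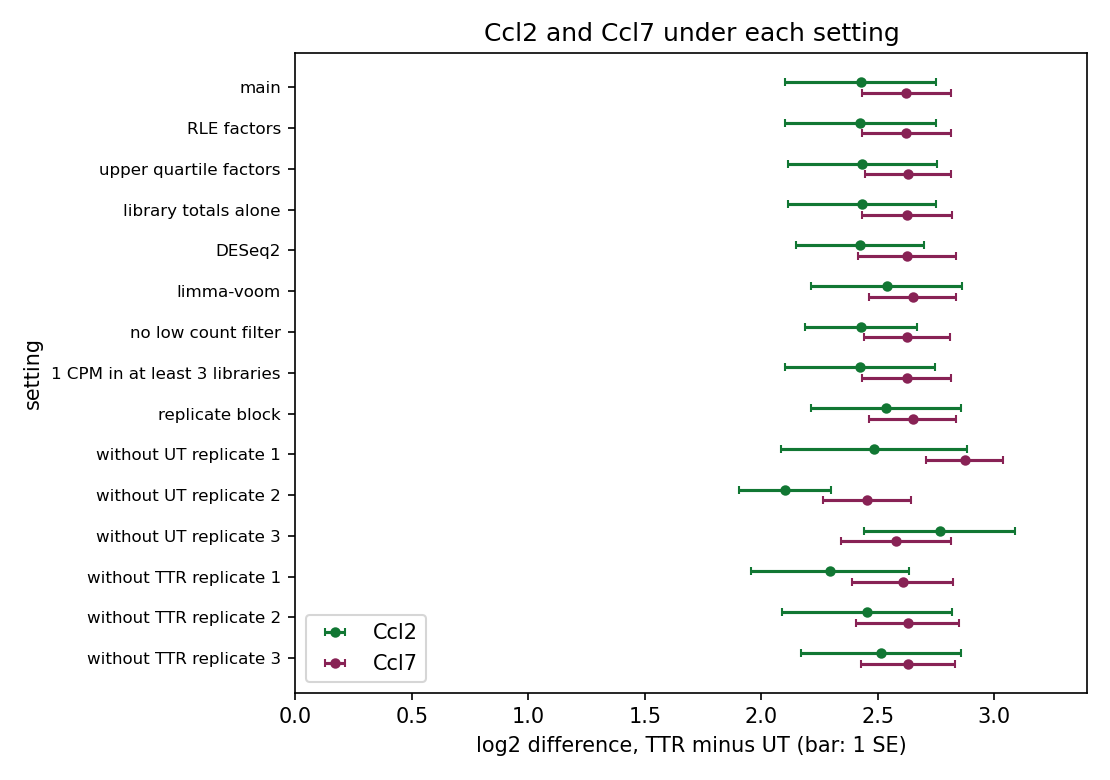
Log2 difference, TTR minus UT (x axis, from 0, bars 1 SE), of Ccl2 and Ccl7 under each of 15 settings (y axis; "main" is the edgeR fit with TMM factors on all 6 libraries). All values lie between 2.10 and 2.87.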

How the data were processed

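RNA of cardiac fibroblasts was sequenced in 6 libraries, 3 UT and 3 TTR. The authors deposited their counts per gene, raw and not normalized, as 1 table. Per the submitters' processing notes, STAR, featureCounts, edgeR and the build rn6 were used; versions, annotation, strand setting and multi-mapping reads are not described there, so reads shared with related chemokine genes may be split or lost. All 6 columns were matched to samples by description. The main fit was edgeR 4.0.16 (R 4.3.3) quasi-likelihood, TTR against UT, group the only term, filterByExpr (minimum count 10), TMM factors and Benjamini-Hochberg adjustment over 12049 tested genes. SEs come from the fold and the F statistic. Log2 CPM used a prior count of 2. The edgeR step was tested on simulated counts with independent libraries, which lack the close pairs across the groups seen here. Alternatives were DESeq2 1.42.0, limma-voom (limma 3.58.1), other scalings and filters, each library left out, and a replicate block.

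The members, the 12 lists of 112 symbols and the tests were chosen with earlier results of these data known. The lists, which include markers of other cell types, were not analysed, as 0 IDs matched a symbol. Named genes were to be the members, list genes, and the 2 genes with the highest r with each member, before and after centring. As the IDs have no symbols, only the first for each member before centring is printed. No pair of libraries agreed within sampling noise (chi-square over genes averaging at least 20 counts).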

Additional observations from a re-analysis of the deposited data

How the results depend on the processing

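Calls on Ccl2 and Ccl7 use the contrast that chose them, so the adjusted p-values here show only how a call depends on the setting. Of the alternatives run, 11 of 14 left Ccl2 on the same side of the adjusted p threshold of 0.05, and 13 of 14 did so for Ccl7. The direction held for both in all, as it must for groups that do not overlap. Ccl2 missed the threshold in the edgeR fit on all libraries (adjusted p = 0.0689) and passed it with DESeq2 (log2 difference 2.42), without the low count filter (2.43) and without UT replicate 2 (2.10). Its adjusted p ran from 5.03e-15 (DESeq2) to 0.404 (edgeR with the replicate number as a block). With 1 library left out the log2 difference ran from 2.10 to 2.77 for Ccl2, from 2.45 to 2.87 for Ccl7 and from -0.22 to 0.37 for the Ccl7 to Ccl2 proportion. With the replicate number as a block, Ccl7 stood at 2.65 and missed the threshold (adjusted p = 0.107 by edgeR). The count of called genes fell from 1 to 0. With the block, 223 of 12049 genes had an unadjusted p under 0.05, a smaller share than the 0.05 expected if no gene differed. The Ccl7 to Ccl2 proportion was the same with the block (0.13), as it must be, since every replicate number occurs once in each group. The numbers share no stated origin. Deviations of same-numbered libraries correlated at -0.38, 0.44 and -0.40, so the block is not taken as a pairing. The positive correlations between the groups were 0.58 for UT replicate 3 with TTR replicate 1, 0.52 for UT replicate 1 with TTR replicate 3, and 0.44 for the libraries numbered 2, the same pairs that were closest in their counts. The other 6 combinations stood at -0.09 or lower. No fit was made with these pairs, which were found in the counts and not in the labels. DESeq2 called 37 genes (35 higher, 2 lower) and edgeR without the low count filter called 36 (34 higher, 2 lower). When genes needed 1 CPM in 3 libraries or more, 3 were called. Leaving out 1 library gave 1 to 9 calls, namely 9 without TTR replicate 1, 2 when UT replicate 2 was dropped, and 1 otherwise. The cause was not tested. Depth limits Ccl7 on UT most, where 54 to 100 counts per library give a counting error of 12.1%.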
